A study of Mus musculus with 36 samples.

Results

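Gene expression in the diaphragm, the main breathing muscle, of control mice was compared between 7 and 28 days of age, a span in which the muscle of the pup matures and milk is replaced by solid food. All 3 control arrays of 28 days were set against all 3 control arrays of 7 days, across every probe set measured, which used 6 of the 36 arrays of the series. The series profiled total RNA from diaphragm on 1-colour Affymetrix arrays, in control mice and in mdx mice, a strain in which the dystrophin gene is mutated. Both genotypes were taken at 7, 14, 23, 28, 56 and 112 days, with 3 arrays for each age and genotype. The other control ages are used here only to place a level in time. The mdx arrays of 7 and 28 days are used where the change with age was compared between genotypes. Those of 7 days also serve to show the spread of a few probe sets. The labels describe the controls by that word alone and give no strain, sex or treatment. Nothing in the labels says that the replicates came from separate animals or whether tissue was pooled, so each p-value sets a difference against array-to-array spread that may be no more than technical.

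In newborn rodents the muscle fibres still hold embryonic and neonatal myosin heavy chains, and acetylcholine receptors carry a fetal gamma subunit that is later replaced by epsilon. Fibre nuclei are added by dividing precursor cells, the sheaths of connective tissue are laid down, and a group of imprinted genes, which are expressed from the copy of only 1 parent, is active during growth and silenced afterwards. Fuel use, contact with microbes and the supply of immune cells all change around weaning.

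Values are deposited signals, linear and scaled to the same level in every array before deposit. Tests used limma on log2(signal + 32), with p-values adjusted by the Benjamini-Hochberg method over all 9291 probe sets tested, and a probe set is called a rise or a fall at an adjusted p under 0.05. A log2 difference is the mean of 28 days minus the mean of 7 days, and it understates the change of a dim gene because of the added 32. Signals of different probe sets are not compared, since each probe set has its own response to RNA, and one whose name ends in _f_at, _s_at or _g_at may also read related genes.

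The median signal of the 6 arrays ran from 555.6 to 609.9, and arrays of the same age correlated at 0.95 to 0.96 at 7 days and 0.948 to 0.956 at 28 days. Muscle creatine kinase, Ckm, read between 13431 and 38468 on the 6 arrays, and the muscle genes Mb, myoglobin, and Des, desmin, between 4698 and 18379 and between 3727 and 5325. Some arrays stood apart in other ways. The albumin gene Alb, a liver product, read 964, 1832 and 25494 on the 7-day arrays and 526, 169 and 457 on the 28-day arrays, so that the third 7-day array was high, and the summed signal of 17 liver genes reached 73342 on that array against a lowest sum of 5844 at 7 days. The ratio of the 3 prime to the 5 prime control probe set of Gapdh was 0.147, 0.0555 and 0.0357 on the 7-day arrays, and on the 28-day arrays it was 0.244, 0.036 and 0.0578, which sets the first array of each age apart from the other two. The ends are those given by the names of the control probe sets, which could not be checked here. A reading so far below 1 is unusual, and if the names were exchanged every ratio would turn over and its order reverse. The labels give no scan or hybridization date, so that any batch shared by the arrays of an age cannot be told apart from age.

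Between 7 and 28 days 612 of 9291 probe sets rose (6.59%) and 750 fell (8.07%), which is 14.7% in all. The rises covered 506 genes with a gene symbol of their own and the falls 650. A log2 difference above 1 was found in 227 of the rises, and one below -1 in 288 of the falls. For 1335 of the 1362 called probe sets the 3 arrays of 28 days lay wholly above or wholly below the 3 of 7 days, which was so for 36.6% of all probe sets. With each of the 6 arrays left out in turn, 344 of the rises and 384 of the falls held in every fit. Falls numbered 494 without the third 7-day array and 496 without the first 28-day array. The median log2 difference over all tested probe sets was 0.02 and is the background for the medians of gene groups given below. In the same way 6.59% and 8.07% are the background for the counts of rises and of falls in those groups.

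**Figure D1:**
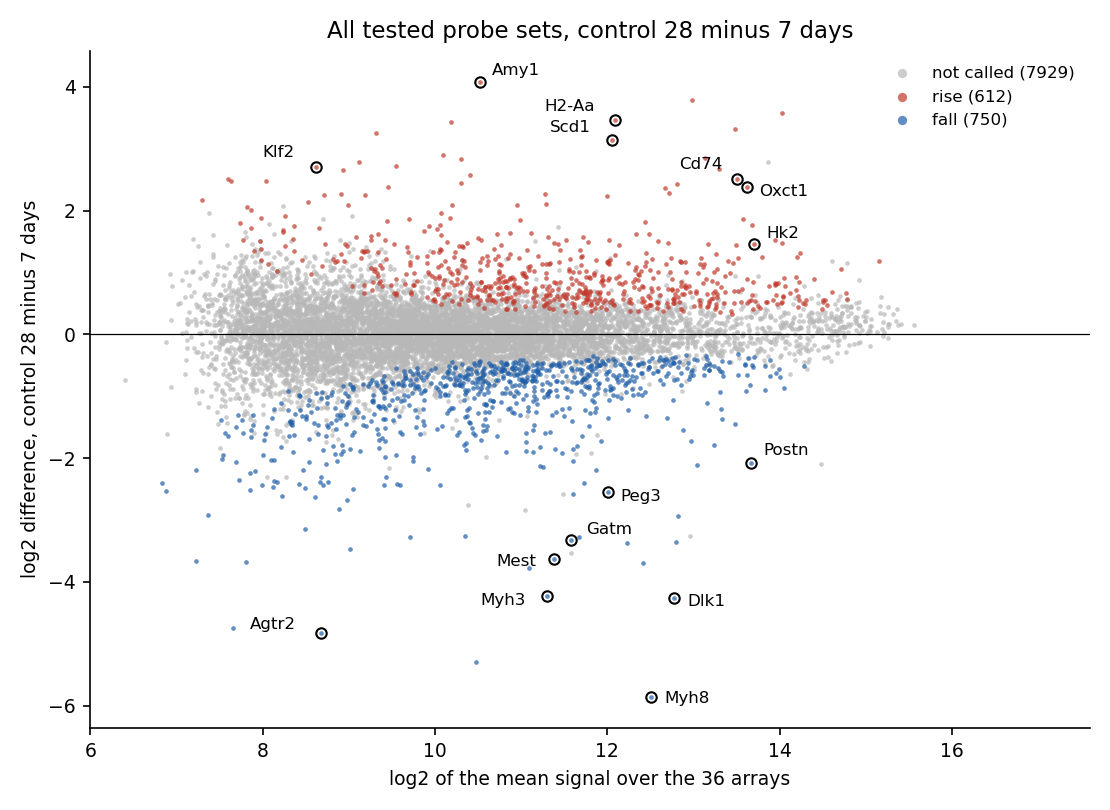
Each point is 1 of the 9291 tested probe sets, with the log2 of its mean signal over the 36 arrays on the horizontal axis and the log2 difference of control 28 minus 7 days on the vertical axis; red marks the 612 rises, blue the 750 falls and grey the probe sets that were not called. Myh8 lies lowest at -5.86 and Amy1 highest at 4.09, and circled genes are described in the text.

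At 14 days 408 of the 750 falls (54.4%) had passed the midpoint between the 7-day and the 28-day mean, against 229 of the 612 rises (37.4%), and at 23 days 667 of the falls (88.9%) and 524 of the rises (85.6%) had done so. These shares describe group means on the log2 scale and were not tested against each other. The control arrays of 14 days had medians of 663.0 to 687.8 and those of 23 days medians of 450.6 to 504.5, both outside the range of the 6 arrays compared here.

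**Figure D2:**
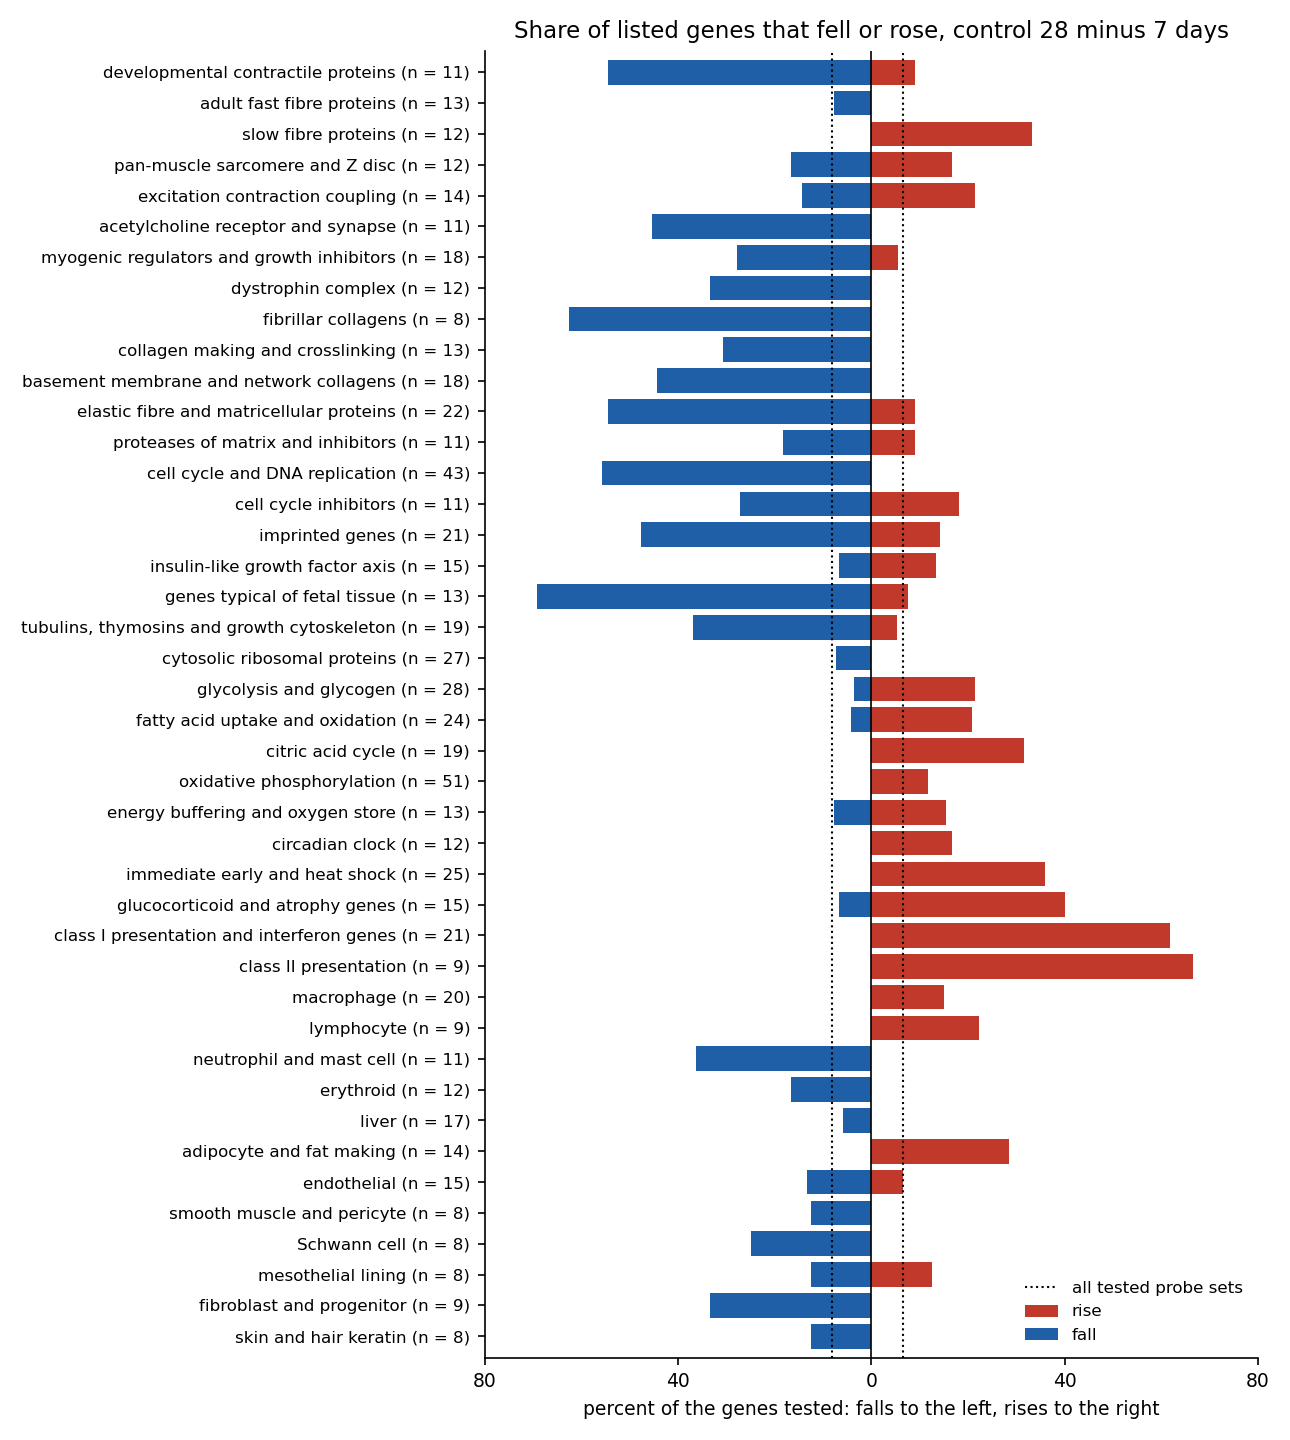
For each gene group the bar to the right is the percent of its tested genes that rose and the bar to the left the percent that fell between 7 and 28 days in control diaphragm, with the number of genes tested in brackets; dotted lines mark the share of all tested probe sets, 6.59% for rises and 8.07% for falls. Falls lead among developmental contractile proteins, matrix, cell cycle, imprinted and fetal genes, and rises among antigen presentation, immediate early and glucocorticoid genes.

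The developmental myosins fell to a small part of their 7-day signal. Myh8, the neonatal myosin heavy chain, read 26713, 22091 and 27920 on the 7-day arrays and 385, 445 and 391 on the 28-day arrays. Its mean went from 25575 ± 3077 to 407 ± 32.7 (SD, n = 3 each), which is 62.8 times lower (log2 difference -5.86, SE 0.30, adjusted p = 3.02e-15). Most of that drop was in place at 14 days, where its mean was 2304. Myh3, the embryonic heavy chain, read 2393, 3068 and 4477 at 7 days and 93.9, 138 and 208 at 28 days (log2 difference -4.23, SE 0.45, adjusted p = 3.66e-08; -3.62 with a larger added constant). Myl4, a light chain of embryonic muscle and of the heart atrium, read 6654, 5632 and 6173 and then 531, 573 and 612 (log2 difference -3.36, SE 0.26, adjusted p = 4.89e-11). In all 3 genes the lowest 7-day array was several times above the highest 28-day array. A further probe set of Myl4, 100828_at, fell less, from a range of 1626 to 2382 to a range of 1130 to 1277, with a log2 difference of -0.64 (adjusted p = 0.0408). In bulk tissue, fewer cells of a type and less RNA per cell cannot be told apart, here or for any gene below.

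Of the 11 developmental contractile genes tested 6 fell and 1 rose, with a median log2 difference of -1.23, and all 6 falls held without any 1 array. Besides the 3 above, these were Mybph, a myosin-binding protein, at -2.14 (SE 0.23), Tnnt2, the cardiac form of troponin T that is also made in young skeletal muscle, at -1.51 (SE 0.26), and Acta2, the smooth muscle actin of developing fibres and vessel walls, at -1.23 (SE 0.21). The riser, the slow and ventricular light chain Myl3, had a log2 difference of 0.63 and lost its call without the first 28-day array. Actc1, the cardiac actin that is abundant in fetal muscle, was not called by its probe sets, at 0.06 (adjusted p = 0.905) and -0.08 (adjusted p = 0.812). By the latter, 101028_i_at, its mean was 21360 at 7 days and 20058 at 28 days. At the other control ages that mean was lower, at 6835, 10816, 9994 and 9475 at 14, 23, 56 and 112 days.

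Of the adult myosin heavy chains Myh1, Myh4 and Myh7 already stood at high signals at 7 days, and neither they nor Myh2 were called. Myh1, the fast 2X chain, read 34161, 33092 and 29304 at 7 days and 46307, 28290 and 36205 at 28 days, with overlapping arrays (log2 difference 0.17, SE 0.29, adjusted p = 0.769). Myh4, the fast 2B chain, read 28336, 20714 and 18950 and then 13629, 16481 and 22617 (log2 difference -0.38, SE 0.23, adjusted p = 0.331). Its probe set 161545_r_at was at 0.58 (adjusted p = 0.382). Myh7, the slow chain, read 30349, 31518 and 31261 and then 46106, 31414 and 37434 (log2 difference 0.29, SE 0.17, adjusted p = 0.296). Myh2, the fast 2A chain, was dim on this array, at 50.3, 190.1 and 39.1 and then 346, 45.7 and 467, and was not called (log2 difference 1.17, SE 0.72, adjusted p = 0.329). The highest signal of any probe set ran from 33975 to 37550 on the 7-day arrays and from 33471 to 52475 on the 28-day arrays. At 7 days Myh1 and Myh7 lay close to these highest signals. Whether readings that high understate a rise was not tested. A p that misses the threshold does not show that these levels were equal.

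**Figure D3:**
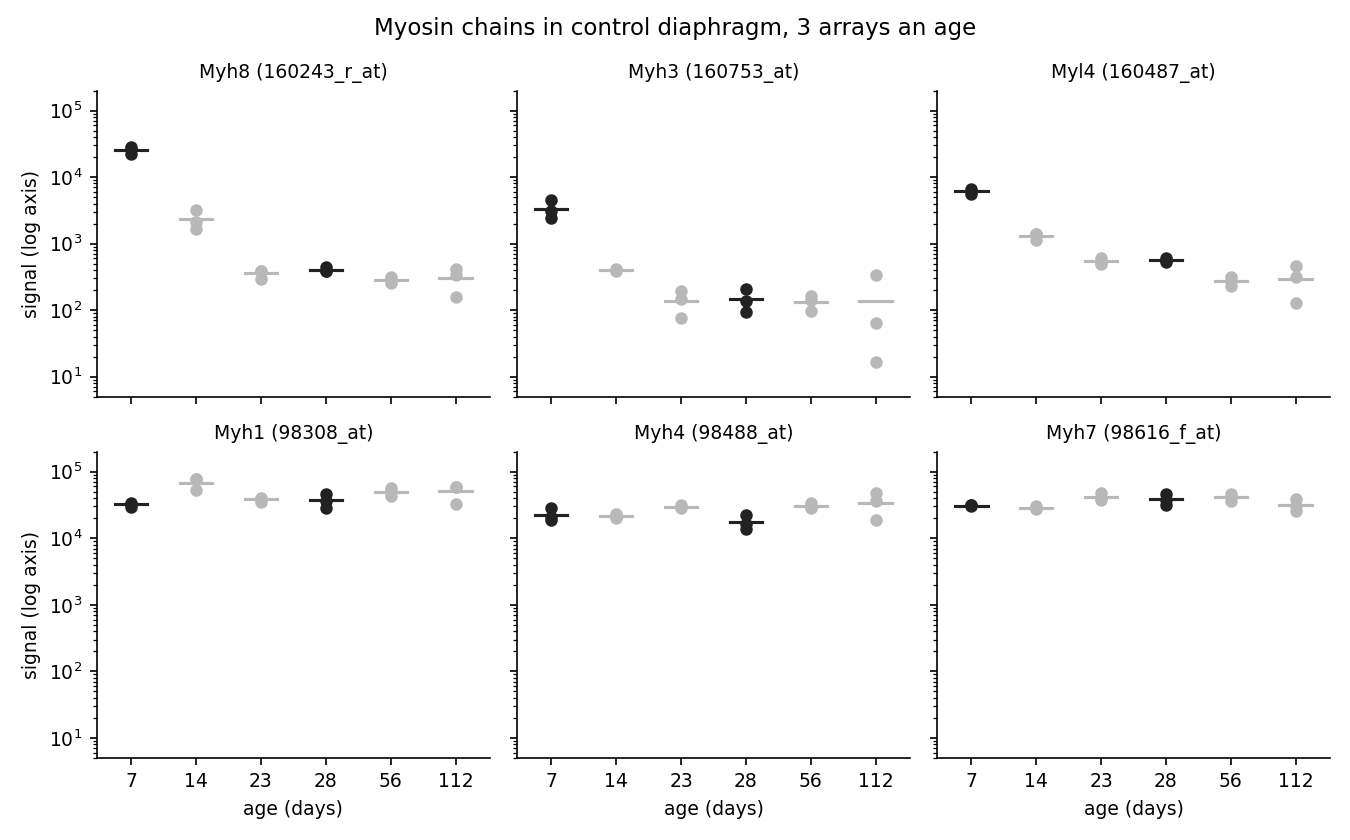
Signal of 6 myosin chains on each control array (points, 3 an age) and the group mean (lines) against age in days, on a log axis; the ages compared here are black and the other ages grey. Myh8, Myh3 and Myl4 drop between 7 and 23 days and stay low to 112 days, while Myh1, Myh4 and Myh7 lie between 13629 and 46307 at 7 and 28 days.

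Of 13 adult fast fibre genes none rose and 1 fell (7.69%, against 8.07% of all probe sets), with a median of 0.16. The fall was that of the tropomyosin Tpm1 (-0.75). Its call was lost without the first or the third 7-day array or the first 28-day array. Of 12 slow fibre genes 4 rose and none fell, with a median of 0.29, but only Atp2a2, the slow and cardiac calcium pump, held without each array in turn; its signal went from 12010, 9809.9 and 12608 to 19380, 19383 and 20333 (log2 difference 0.79, SE 0.15, adjusted p = 0.000399). The group's count fell from 4 to 2 without the first or the second 7-day array and without the first or the third 28-day array. Slow troponin T, Tnnt1, was called by 1 probe set, 101383_at, at 0.56 (adjusted p = 0.00109), and not by the brighter 161361_s_at, at 0.15 (adjusted p = 0.908). Of 12 pan-muscle genes of the sarcomere and Z disc 2 rose and 2 fell (median 0.08). Those that held in every fit were Cryab, a small heat shock protein of the Z disc, at 0.65 (SE 0.16), and Myom2, a protein of the M band, at -0.89 (SE 0.13). Xirp1, a protein of fibre ends, lost its rise without the second 28-day array, and Pdlim3, a Z disc protein, its fall without the second or the third 7-day array or the first or the third 28-day array.

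Cacng1, the gamma subunit of the calcium channel in the T tubules, fell from 10672, 12528 and 9570 to 2215, 2277 and 2561 (log2 difference -2.19, SE 0.19, adjusted p = 5.43e-10). Ryr3, the calcium release channel typical of young muscle, fell from 1522, 1886 and 1699 to 655, 530.5 and 602 (log2 difference -1.47, SE 0.26, adjusted p = 0.000145), and by its other probe set it was at -2.38 (SE 0.31). Ryr1, the main release channel of adult fibres, was not called, at 0.45 (adjusted p = 0.119). Cacna1s, the pore of the same T tubule channel, rose by 0.51, and Kcna7, a potassium channel, by 1.12 on the log2 scale. Of the 14 genes tested for excitation and contraction 3 rose and 2 fell (median 0.20), and apart from the rise of the sodium pump subunit Atp1b1, lost without the first 7-day array, these calls held without any 1 array.

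At the nerve-muscle synapse 5 of 11 genes fell and none rose, with a median of -0.89. Chrna1, the acetylcholine-binding alpha subunit of the receptor, read 3158, 3381 and 4044 at 7 days and 929, 934 and 924 at 28 days (log2 difference -1.88, SE 0.16, adjusted p = 5.43e-10), and its 28-day arrays lay close together. Chrng, the fetal gamma subunit, read 1088, 1166 and 1145 and then 735, 144 and 268, so that the first 28-day array was well above the other two but below every 7-day array (log2 difference -1.76, SE 0.41, adjusted p = 0.00307). By 161215_at it was at -0.95 (adjusted p = 0.0138). The beta subunit Chrnb1 was at -0.89 (SE 0.13) and the cell adhesion molecule Ncam1, which is spread over young or denervated fibres, at -1.19 (SE 0.19). A second Ncam1 probe set, 161750_f_at, was not called, at 0.21 (adjusted p = 0.75). Chrnd, the delta subunit, was called at -1.29 and was lost without the second or the third 7-day array (-1.12 and -1.30, adjusted p = 0.0983 and 0.0607) and without the second 28-day array (-0.61, adjusted p = 0.274). Chrne, the adult epsilon subunit, was called a rise by none of its probe sets: its brightest probe set was at -0.35 (adjusted p = 0.69), 92965_at at -0.49 (adjusted p = 0.41), and 92966_g_at was called a fall at -1.35 (adjusted p = 0.0155). Rapsn, which clusters the receptors, and Agrn, the nerve-derived organizer of the synapse, were not called, at -0.10 and -0.21.

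The 250 bases before the start sites of the synaptic genes that fell were searched on both strands for the E-box CAGNTG, the letters bound by myogenic factors such as myogenin. Windows were found for 3 of the 5 genes that fell, and all 3 held it, against 44.5% of 27025 windows of the same length from all genes. The 2 genes with the largest falls are shown, 5′ to 3′ in the direction of the gene, with E-boxes in capitals, from RefSeq on GRCm38.p6 (Chrna1 at chr2:73580339-73580588, minus strand; Chrng at chr1:87205561-87205810, plus strand).
Chrna1: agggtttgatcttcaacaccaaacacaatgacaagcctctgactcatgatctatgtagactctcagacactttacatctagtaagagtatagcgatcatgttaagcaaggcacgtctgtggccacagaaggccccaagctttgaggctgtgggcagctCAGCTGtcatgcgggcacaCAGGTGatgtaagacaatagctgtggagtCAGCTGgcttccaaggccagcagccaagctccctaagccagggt
Chrng: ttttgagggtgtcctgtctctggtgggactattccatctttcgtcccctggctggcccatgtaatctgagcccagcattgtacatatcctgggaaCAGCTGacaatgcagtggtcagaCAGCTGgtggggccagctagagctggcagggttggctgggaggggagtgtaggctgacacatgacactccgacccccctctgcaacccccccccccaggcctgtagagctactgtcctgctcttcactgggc
The matches of Chrna1 lie at -92 to -87, -73 to -68 and -44 to -39 from the start site, and those of Chrng at -155 to -150 and -132 to -127. A match shows only that the letters are present.

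Myog, the myogenic factor myogenin that drives fusion and differentiation, fell from 4689, 5468 and 4093 to 1763, 1209.5 and 1082 (log2 difference -1.81, SE 0.30, adjusted p = 6.85e-05). Mstn, the growth inhibitor myostatin, read 3142, 3690.3 and 2807 at 7 days and 1049, 1331 and 1623 at 28 days (log2 difference -1.26, SE 0.19, adjusted p = 1.84e-05). Id2, an inhibitor of myogenic factors, fell, at -0.81 (SE 0.18) on the log2 scale. Six4, a homeobox factor of muscle, went the other way, from 687, 1003 and 1154 to 2158, 2831 and 2813 (log2 difference 1.45, SE 0.34, adjusted p = 0.00334). Of the 18 myogenic regulators and growth inhibitors 5 fell and 1 rose, with a median of -0.09. The fall of Myod1 was lost without the first 7-day array or the third 28-day array, which left 3 falls, and that of Fst without any array but the second 28-day array. Of 12 genes of the dystrophin complex 4 fell and none rose (median -0.44). Lama2, the laminin chain that the complex binds outside the fibre, was the member that held in every fit, at -0.75 (SE 0.14). The other falls were Cav3, Dag1 (by 101109_at and not by 161183_at, at -0.33 (adjusted p = 0.224)) and Sntb1, each lost without some array, and the count dropped to 1 without the third 7-day array and to 2 without the first or the second 7-day array or the first or the third 28-day array.

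Of 43 genes of the cell cycle and of DNA replication 24 fell and none rose, with a median of -0.92, and for 37 of the 43 all 3 arrays of 28 days lay below the 3 of 7 days, against 19.4% of all probe sets. Cdk1, the kinase that starts mitosis, read 2076, 1983 and 2146 at 7 days and 259, 284 and 622 at 28 days (log2 difference -2.42, SE 0.51, adjusted p = 0.000958), with the third 28-day array above the other two. Ccnb2, a cyclin that partners it, fell from 3543, 3977 and 3889.9 to 1188, 1199.6 and 1462 (log2 difference -1.55, SE 0.24, adjusted p = 1.65e-05). Kif20a, a motor of the spindle, was at -2.44 (SE 0.41) and, by 160501_at, at -1.59 (SE 0.42), Birc5, survivin, which acts in chromosome segregation, at -1.86 (SE 0.33), and Stmn1, which takes microtubules apart, at -1.82 (SE 0.31). The helicase subunit Mcm3, of the complex that opens origins of replication, was at -1.20 (SE 0.22) by its brightest probe set and at -0.64 (adjusted p = 0.288), not called, by 100062_at, and Mad2l1, of the spindle checkpoint, was at -1.51 (SE 0.28). Of the 24 falls 18 held in every leave-one-out fit. The helicase subunit Mcm7 was not called, at -0.80 (adjusted p = 0.191). Of the probe sets of the mitotic kinase Plk1, 93099_f_at fell from 524, 477 and 504 to 199.9, 140.3 and 266 (log2 difference -1.22, SE 0.34, adjusted p = 0.011), while the brightest one, taken for the group, was at -0.56 (adjusted p = 0.156) and 161292_f_at at 0.24 (adjusted p = 0.811). The summed signal of the measured genes of the group ran from 62746 to 65736 at 7 days and from 31095 to 32732 at 28 days. Mki67, a marker of dividing cells, was read differently by its probe sets: 99457_at fell from 1596, 1516 and 2202 to 340, 354 and 221 (adjusted p = 0.000164), and the probe set taken for the group, 161931_r_at, was at 0.43 (adjusted p = 0.412).

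Promoters of the genes that fell were searched on both strands for CCAAT and for TTTGAA, the core of the cell cycle homology region found in many genes of mitosis. Of 18 genes with a window 13 held CCAAT, against 34.5% of all windows, and 7 held TTTGAA, against 16.3%. No match of the 2 motifs overlapped in these 18 windows. Cdk1 (chr10:69352913-69353162, minus strand) and Top2a (chr11:99024190-99024439, minus strand), a topoisomerase that untangles DNA and fell by 2.20 on the log2 scale, hold both and are shown 5′ to 3′ with CCAAT and TTTGAA or their reverse complements in capitals, from RefSeq on GRCm38.p6.
Cdk1: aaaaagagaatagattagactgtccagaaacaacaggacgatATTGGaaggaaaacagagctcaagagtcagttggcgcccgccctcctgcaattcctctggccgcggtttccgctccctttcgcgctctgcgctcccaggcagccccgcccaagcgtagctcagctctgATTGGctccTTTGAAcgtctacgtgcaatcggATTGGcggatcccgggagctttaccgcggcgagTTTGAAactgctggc
Top2a: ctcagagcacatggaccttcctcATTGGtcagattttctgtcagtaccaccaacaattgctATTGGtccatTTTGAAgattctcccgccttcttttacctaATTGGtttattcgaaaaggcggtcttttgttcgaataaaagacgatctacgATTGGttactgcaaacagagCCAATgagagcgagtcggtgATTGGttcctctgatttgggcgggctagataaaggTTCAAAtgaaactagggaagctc
In Cdk1 the CCAAT matches start at -208, -80 and -48 and the TTTGAA matches at -71 and -15 from the start site, and in Top2a there are 6 and 2 matches.

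Inhibitors of the cycle moved both ways, with 2 of 11 genes up, 3 down and all 5 calls holding without any 1 array. Btg2, which slows division, rose by 1.04, from 2854, 3757 and 2946 to 5981, 7303 and 6421, and Rbl2, a relative of the retinoblastoma protein kept in resting cells, rose by 1.08. Rb1, the retinoblastoma protein itself, and the antiproliferative Btg1 fell, at -0.99 (SE 0.18) and -0.86 (SE 0.17). Cdkn1c, an imprinted inhibitor of cyclin-dependent kinases, fell from 20132, 15213 and 17360 to 6759, 7198 and 5253 (log2 difference -1.46, SE 0.16, adjusted p = 5.03e-08). Cdkn1a, the p21 inhibitor, was at -0.07 (adjusted p = 0.889).

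Imprinted genes of growth held several of the largest falls. Dlk1, a paternally expressed inhibitor of adipocyte and muscle differentiation, read 25296, 23155 and 19938 at 7 days and 1294, 1002 and 1186 at 28 days. Its mean went from 22796 ± 2697 to 1160.4 ± 148 (SD, n = 3 each), 19.6 times lower (log2 difference -4.26, SE 0.22, adjusted p = 3.02e-15), and passed through 8312 at 14 days and 1268 at 23 days. Mest, a paternally expressed hydrolase, fell from 10626, 7015 and 9912 to 652, 693 and 754 (log2 difference -3.63, SE 0.28, adjusted p = 7.13e-11). Plagl1, a zinc finger factor that regulates other imprinted genes, fell from 5041, 3687 and 5063 to 344, 464 and 550 (log2 difference -3.26, SE 0.31, adjusted p = 5.5e-09). Its probe set 92501_s_at was at -1.94 (SE 0.37). In each of these genes the arrays of the 2 ages did not overlap, which was required of the largest falls named here and is no further support. Ndn, of the MAGE family, was at -2.39 (SE 0.18), and Peg3, a zinc finger protein, at -2.11 (SE 0.13), with its other probe sets at -2.55 and -0.76. Igf2r, the receptor that clears insulin-like growth factor 2, was at -0.66 (SE 0.11).

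In all, 10 of 21 imprinted genes fell and 3 rose, with a median of -0.46, and 8 of the falls held in every leave-one-out fit. The rises were those of Igf2, of Meg3 by its brightest probe set, 160172_at, and of Phlda2, a placental growth suppressor. That of Phlda2 was lost without the first or the third array of either age. When every probe set of the imprinted genes was counted in place of the brightest, 17 of 28 fell and 3 rose. Igf2, the growth factor, was called a rise by 98623_g_at, from 1839.5, 829 and 528 to 15398, 10262 and 9613 (log2 difference 3.58, SE 0.65, adjusted p = 0.000178), yet its 14-day mean was 44687, its 23-day mean 16495 and its 56-day mean 6847, and its other probe set was below the filter. Meg3, a maternally expressed noncoding RNA next to Dlk1, was read in opposite directions: 160173_at fell from 23946, 24662 and 24332 to 2832, 4149.7 and 2696 (log2 difference -2.93, SE 0.21, adjusted p = 2.15e-11), and 160172_at rose from 907, 1752 and 1399 to 8301, 10051 and 7366 (log2 difference 2.67, SE 0.57, adjusted p = 0.00117), with a mean of 23228 at 14 days. Of 314 genes that were read by at least 2 tested probe sets and had a call, 2 were called in opposite directions, Meg3 and Cxcl12.

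Some bright probe sets shared the time course of Igf2 and of 160172_at, low at 7 days and highest at 14 days. Among them Gnas, an imprinted G protein subunit, was read at 10867, 7921 and 8894, then 36073, 9923 and 25426 by its brightest probe set (not called, adjusted p = 0.137), with a mean of 40797 at 14 days, and skeletal actin, Acta1, at 3976, 1936 and 4511, then 19156, 656 and 2009 (adjusted p = 0.97), with a mean of 36176 at 14 days. The Gapdh control probe set named 3 prime followed this course too, at 2932, 472 and 556, then 7557, 509 and 858. Its 14-day arrays read 65605, 33412 and 65930, where the Gapdh ratio was 0.831, 0.694 and 0.971. The ribosomal protein gene Rpl41 read 1605, 213 and 588, then 10846, 1603 and 4572.5, with 54620, 33728 and 44664 at 14 days. Eef1a1 and Rps28 were also low at 7 days and highest at 14 days. In Acta1 the first 28-day array, which also stood apart in the Gapdh ratio, was far above the other 28-day arrays. For Igf2 and 160172_at the 3 control arrays of 28 days lay together. On the mdx arrays of 7 days, however, 160172_at was spread, at 27193, 1194 and 11633. The Gapdh control probe set named 3 prime read 36682, 6114 and 22214 on those mdx arrays, and Igf2 3242, 3144 and 1447. With the Gapdh ratio as a covariate Igf2 and 160172_at were still called. The ratio lay in much the same range at both ages compared, so that such an adjustment could move these differences only little. That fit therefore cannot decide what part the ratio plays in these values. Its part was not tested in any other way. A second Gnas probe set, 92672_at, fell from 1910.3, 1702 and 1343 to 485, 382 and 640.5 (adjusted p = 9.01e-05).

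**Figure D4:**
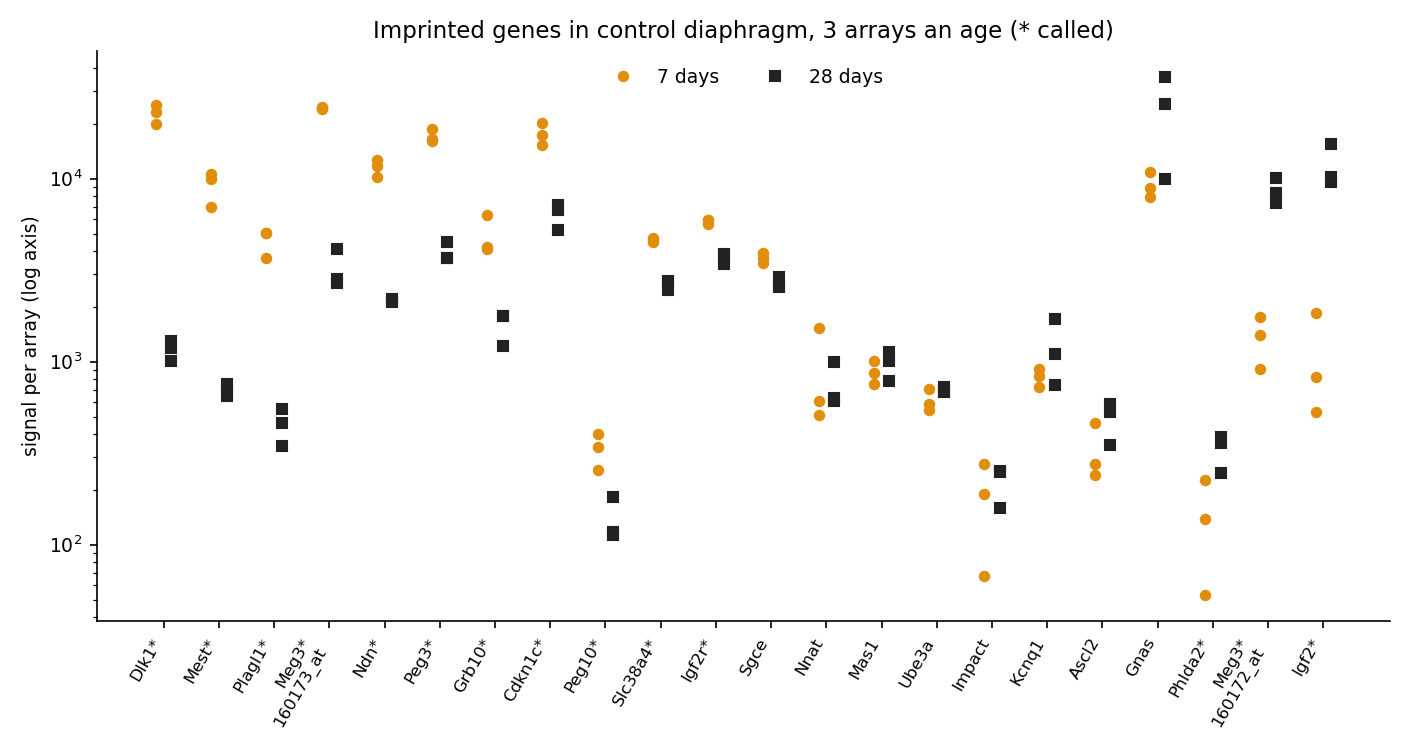
Signal of the imprinted genes on each 7-day array (orange circles) and each 28-day array (black squares) of control diaphragm, on a log axis, ordered by log2 difference, with both probe sets of Meg3; an asterisk marks a call. From Dlk1 to Igf2r the 28-day arrays lie below the 7-day arrays, and for Igf2 and Meg3 160172_at they lie above.

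Other genes typical of fetal tissue fell with them: 9 of 13 fell and 1 rose, with a median of -1.07. Mdk, the heparin-binding growth factor midkine, read 3936, 5108 and 3819 at 7 days and 1011, 1342 and 1023 at 28 days (log2 difference -1.90, SE 0.27, adjusted p = 4.65e-06). Gpc3, a cell surface proteoglycan of growing tissue, was at -1.23 (SE 0.21), and Marcksl1 and Marcks, which tie the membrane to actin, at -1.44 (SE 0.17) and -1.35 (SE 0.17). Apart from Fst the 9 falls held without any 1 array. Cxcl12, a chemokine that guides migrating cells, rose by 100112_at, from 3284, 2962 and 2603 to 5303, 5945 and 5090.4 (log2 difference 0.88, SE 0.16, adjusted p = 0.000161), and by 162234_f_at (0.89), and fell by 160511_at, at -0.97 (adjusted p = 0.000129). Of 15 genes of the insulin-like growth factor axis Igf2 and Irs2 rose and Igf2r fell, and without the second 28-day array 2 falls were called. Irs2, an adaptor of the insulin receptor, rose from 556, 159 and 342 to 1237, 1196 and 1173 (log2 difference 1.83, SE 0.44, adjusted p = 0.00397), and Igf1 was at 0.25 (adjusted p = 0.606).

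Of 19 tubulins, thymosins and related genes 7 fell and 1 rose (median -0.42), and all 8 calls held without any 1 array. Tubb6, a beta tubulin, read 10563, 9142 and 9420.3 at 7 days and 2956, 3165 and 2672 at 28 days (log2 difference -1.72, SE 0.16, adjusted p = 3.05e-09). Tubb5 was at -1.20 (SE 0.15) by its brightest probe set and was not called by 94789_r_at, at -0.52 (adjusted p = 0.203). Tmsb10, an actin-sequestering thymosin, was at -0.87 (SE 0.21), and Nes, an intermediate filament protein of immature fibres, at -0.98 (SE 0.18). Tuba8, an alpha tubulin of mature muscle, rose from 2944, 3132 and 2777 to 6412, 5427 and 5575 (log2 difference 0.97, SE 0.15, adjusted p = 1.96e-05). Cytosolic ribosomal proteins gave no rise and 2 falls among 27 genes (7.41%, against 8.07% of all probe sets), with a median of 0.13. Without the second 7-day array neither was called, without any other array 1 fall was called, and without the second 28-day array also 1 rise.

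Postn, periostin, a protein of growing and healing connective tissue, read 24380, 22146 and 22515 at 7 days and 4488, 6409 and 5466 at 28 days, from 23013 ± 1197 to 5455 ± 960.5 (SD, n = 3 each; log2 difference -2.08, SE 0.16, adjusted p = 7.13e-11). Mfap2, a microfibril protein, fell from 8059, 6636 and 8418 to 1872, 2044 and 2118 (log2 difference -1.92, SE 0.21, adjusted p = 5.63e-08). Thbs2, thrombospondin 2, was at -1.88 (SE 0.23), Vcan, the large proteoglycan versican, at -1.60 (SE 0.22), Mfap4, another microfibril protein, at -1.58 (SE 0.23), and Matn2, a matrilin of basement membranes, at -1.42 (SE 0.17). In these 6 genes the arrays of the 2 ages did not overlap, as was so for 1335 of the 1362 called probe sets. In the group of elastic fibre and matricellular proteins 12 of 22 genes fell and 2 rose, with a median of -0.73. Chad, a cartilage and tendon protein that binds collagen, was the rise that held in every fit, from 776, 1018 and 769 to 1771, 1849 and 2348 (log2 difference 1.19, SE 0.20, adjusted p = 8.35e-05), while the other, of the fibulin Fbln1 by its brightest probe set 94309_g_at, was small, at 0.38 (SE 0.12), and was lost without each of the 6 arrays in turn. A further Fbln1 probe set, 94307_at, rose from 913, 972 and 877 to 1519, 1908 and 1302 (log2 difference 0.74, SE 0.21, adjusted p = 0.0158), and 94308_at was at -0.09 (adjusted p = 0.763). Dcn, the collagen-binding proteoglycan decorin, and Eln, elastin, were not called, at 0.16 (adjusted p = 0.675) and, by its probe sets, 0.23 (adjusted p = 0.495) and -0.58 (adjusted p = 0.365). A second Matn2 probe set, 161776_at, was not called either, at 0.57 (adjusted p = 0.478).

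Among the fibrillar collagens 5 of 8 fell and none rose, with a median of -0.62. Col5a1 and Col5a2, which make the collagen V that sets fibril width, were at -0.74 (SE 0.15) and -0.82 (SE 0.14), and Col11a2, of the related collagen XI, at -2.46 (SE 0.50). A second Col1a2 probe set, 161156_r_at, was not called, at 0.23 (adjusted p = 0.538). The falls of Col1a2 and Col11a1 were lost without single arrays, so that 3 falls were called without the second or the third 7-day array, and 1 rise was called without the first. The main chains gave mixed readings. Col1a1 read 26354, 19996 and 8537 at 7 days and 36775, 23016 and 32707 at 28 days by 94305_at, where the third 7-day array was low and the mean at 14 days was 59681 (log2 difference 0.87, SE 0.34, adjusted p = 0.0891), while 103709_at read 10392, 10025 and 8677 and 7964, 9018 and 8191 (adjusted p = 0.406). Col3a1 was at 0.00 (adjusted p = 0.992) by its brightest probe set, and 102990_at fell from 11956, 10194 and 11768 to 4085, 4595 and 4851 (adjusted p = 7.47e-08).

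Enzymes and chaperones that make and crosslink collagen gave 4 falls and no rise among 13 genes (median -0.26). Lox, the lysyl oxidase that crosslinks collagen and elastin, fell from 2600, 3346 and 3669.7 to 1564, 1707 and 1618 (log2 difference -0.95, SE 0.20, adjusted p = 0.00124) but was not called by 161177_f_at, at 0.31 (adjusted p = 0.678). The chaperone Fkbp9 was at -0.73 (SE 0.16). The count was 2 without the second 28-day array. Of 18 genes of the basement membrane and of network-forming collagens 8 fell and none rose, with a median of -0.40, and 6 falls held in every fit. Nid2, which links laminin to collagen IV, fell from 3119, 2848 and 2611 to 734, 1018 and 980.5 (log2 difference -1.63, SE 0.24, adjusted p = 7.88e-06). The laminin Lama4 was at -0.73 (SE 0.16), and Lamb1 at -0.50 (SE 0.13) by its brightest probe set and -1.33 (SE 0.19) by 101948_at, a call as well (adjusted p = 6.1e-06). Col6a3, of the collagen VI around fibres, was at -0.62 (SE 0.14). Col18a1, of the collagen XVIII of basement membranes, was among the largest falls by 101882_s_at, from 1802, 1510.5 and 1639 to 173, 308 and 163 (log2 difference -2.81, SE 0.35, adjusted p = 7.76e-07). It was called at -0.75 (adjusted p = 0.00229) by its brightest probe set and at -1.19 by 101881_g_at, and was not called by 101880_at and 162483_f_at, at -0.47 and -0.49. The main chains of collagen IV were not called, at 0.35 (adjusted p = 0.157) for Col4a1 and -0.01 (adjusted p = 0.986) for Col4a2. Mmp14, a membrane-bound protease that cuts collagen, was at -1.10 (SE 0.26).

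Of the metabolic groups, glycolysis, fatty acid oxidation, the citric acid cycle and oxidative phosphorylation had medians of 0.13 to 0.29. Oxct1, the enzyme that lets muscle burn ketone bodies, stood far above these and read 2900.1, 3614 and 4086 at 7 days and 18067, 19741 and 17119 at 28 days. Its mean went from 3534 ± 597 to 18309 ± 1328 (SD, n = 3 each), a 5.18-fold rise (log2 difference 2.37, SE 0.12, adjusted p = 3.02e-15), and it was still at 5702 at 14 days but at 17763 at 23 days. Hk2, the hexokinase that traps glucose in muscle, rose from 5578, 5278 and 6258 to 14942, 15681 and 16404 (log2 difference 1.46, SE 0.13, adjusted p = 2.46e-09). Slc2a4, the insulin-responsive glucose transporter, rose from 7341, 7109 and 7574 to 13994, 13689 and 14600 (log2 difference 0.94, SE 0.19, adjusted p = 0.000645). By 162385_i_at it was at -0.12 (adjusted p = 0.942). Of the genes of glycogen Gbe1, the branching enzyme, was at 1.04 (SE 0.18) and Phka1, a regulatory subunit of phosphorylase kinase, at 0.84 (SE 0.19). Fbp2, the muscle fructose bisphosphatase, fell from 10698, 8929 and 10521 to 2065, 1484 and 1477 (log2 difference -2.58, SE 0.38, adjusted p = 8.82e-06). In all, 6 of 28 genes of glycolysis and glycogen rose and 1 fell (median 0.23). Bright glycolytic enzymes such as Tpi1 and Eno3 were not called, at 0.13 and 0.37.

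Ppara, the receptor that turns on fatty acid oxidation, rose from 1427, 1469 and 1348 to 2873, 3322 and 3313 (log2 difference 1.14, SE 0.19, adjusted p = 4.6e-05), and Cpt1a, the form of carnitine palmitoyltransferase typical of liver and of young tissue, fell from 5155, 5260.2 and 5496 to 1522, 2366 and 2211 (log2 difference -1.39, SE 0.20, adjusted p = 8.85e-06). In both genes the arrays of 28 days lay apart from those of 7 days, as in most called probe sets. The group had 5 rises and 1 fall among 24 genes (median 0.13), and the count of rises was 2 without the second 7-day array or the first 28-day array; Ppara and Eci1 (0.53) held throughout. Pdk4, which spares glucose by blocking pyruvate dehydrogenase, was at 0.03 (adjusted p = 0.941).

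The citric acid cycle rose in 6 of 19 genes and fell in none, and all 19 differences were above 0, with a median of 0.29. Idh3a, a subunit of isocitrate dehydrogenase, rose from 6228, 6649 and 6164 to 10442, 11468 and 12224 (log2 difference 0.84, SE 0.14, adjusted p = 5.91e-05). Sdha, of succinate dehydrogenase, and Ogdh, of the oxoglutarate dehydrogenase complex, were at 0.90 (SE 0.18) and 0.55 (SE 0.11). These 3 held without any 1 array. Oxidative phosphorylation rose in 6 of 51 genes (11.8%, against 6.59% of all probe sets) and fell in none. Of its differences 44 were above 0, and their median was 0.25, against 0.02 over all probe sets. Ndufs4, a subunit of complex I, rose from 492, 631 and 662 to 1493, 1664 and 1552 (log2 difference 1.36, SE 0.20, adjusted p = 6.9e-06). Cox7a1, the muscle form of a cytochrome oxidase subunit, rose from 11972, 9364 and 11050 to 20943, 20069 and 16424 (log2 difference 0.82, SE 0.16, adjusted p = 0.000354). The summed signal of the measured genes of the group ran from 788362 to 846739 at 7 days and from 777378 to 1214244 at 28 days, so that the ages overlapped. In the creatine system Gatm, which makes the precursor of creatine, fell from 9390.1, 9084 and 8590.5 to 808, 1089 and 749.8 (log2 difference -3.33, SE 0.21, adjusted p = 4.02e-13). Slc6a8, which imports creatine, rose from 2556, 2228 and 2541 to 5327, 4207 and 4439 (log2 difference 0.92, SE 0.14, adjusted p = 1.43e-05). Adssl1, the muscle enzyme of the purine nucleotide cycle, was the other rise of the energy buffering group, at 0.79 (SE 0.14).

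Of 15 glucocorticoid and atrophy genes 6 rose and 1 fell, with a median of 0.38. Lpin1, a regulator of lipid metabolism, rose from 3365, 3414 and 3688 to 7708, 8668 and 8347 (log2 difference 1.23, SE 0.12, adjusted p = 1.08e-08). Sgk1, a hormone-induced kinase, rose from 6148, 4293 and 4546 to 11494, 12916 and 12284 (log2 difference 1.30, SE 0.19, adjusted p = 7.88e-06). Klf9 and Ddit4, also induced by glucocorticoids, were at 1.10 (SE 0.20) and 1.16 (SE 0.25), and Gadd45a, a growth arrest gene, fell from 2683, 3325 and 2731 to 1532, 1371 and 1565 (log2 difference -0.95, SE 0.17, adjusted p = 0.000134). These 5 calls held without any 1 array, and those of Fkbp5 (lost without the first or the second 7-day array or the third 28-day array) and Ctsl (lost without 4 of the 6 arrays in turn) did not. Of 25 immediate early and heat shock genes 9 rose and none fell (median 0.57). Fos rose from 1219, 777 and 809.7 to 2792, 2329 and 2759 (log2 difference 1.48, SE 0.26, adjusted p = 0.000105) and the orphan receptor Nr4a1 from 1719.8, 1162 and 1154 to 4206, 3687 and 3778 (log2 difference 1.53, SE 0.27, adjusted p = 0.000134). Klf2, a factor of vessels and resting lymphocytes, rose from 262, 88.5 and 65.4 to 780.2, 1129 and 984 (log2 difference 2.71, SE 0.45, adjusted p = 5.48e-05; 2.09 with a larger added constant), but its mean was 113 at 14 days, 1207 at 23 days and 117 at 112 days. Of the heat shock genes Hspa1a and Hsph1 were at 1.04 (SE 0.24) and 1.16 (SE 0.13), and the bright Hsp90aa1 was not called, at 0.07. In all 6 of the 9 rises held without any 1 array.

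In the circadian clock Nr1d1, the repressor REV-ERB alpha, rose from 1180.3, 1509.5 and 1133 to 3769.5, 4515 and 3244 (log2 difference 1.57, SE 0.21, adjusted p = 2.12e-06), and its mean was 2214 at 14 days and 5812 at 23 days. The other rise among 12 clock genes, Arntl, lost its call without the first or the third 7-day array or the first 28-day array (0.82, 0.78 and 0.81, adjusted p = 0.0512, 0.0667 and 0.058). The hour of collection is not given in the labels, so that time of day cannot be told apart from age.

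Of 21 genes of class I presentation and of the interferon response 13 rose and none fell, with a median of 0.85, and for 17 of the 21 all arrays of 28 days lay above those of 7 days, against 17.2% of all probe sets. H2-K1 and H2-D1, the classical class I chains, rose from 6055, 5337 and 4996 to 12245, 12832 and 13534 and from 5043, 4337 and 4799 to 10310, 11461 and 11620, at 1.23 (SE 0.17) and 1.23 (SE 0.19), each by an _f_at probe set that may read both. Further probe sets of H2-D1 and 97125_f_at of H2-K1 rose as well, but 97700_at of H2-K1 was at -0.08 (adjusted p = 0.919). Tapbp, which loads peptides, was at 0.60 (SE 0.12). Its other probe sets were not called, at 0.53 (adjusted p = 0.0631) and 0.57 (adjusted p = 0.235). Among interferon-induced genes Ifi35 rose from 535, 683 and 622 to 1931, 1487 and 1982 (adjusted p = 0.000542) and Usp18 was at 2.01 (SE 0.41). Ifit1, which binds foreign RNA, was dim, at 17.7, 30.2 and 28.7 and then 231, 185 and 207 (log2 difference 2.06, SE 0.45, adjusted p = 0.00135), so that its difference depends on the added constant: with the largest constant tried it was 1.13, and that of Usp18 1.25. B2m, the shared light chain of class I, was at 0.03 (adjusted p = 0.977), and Isg15 at 0.42 (adjusted p = 0.277). Of the 13 rises 10 held in every leave-one-out fit.

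The interferon-stimulated response element, searched on both strands as GAAA, 2 bases of any kind and GAAA again, was found in 2 of the 10 genes of this group that rose and had a window, Ifit1 and Ifit3, against 3.04% of all windows. That of Ifit1 (chr19:34640639-34640888, plus strand) is shown 5′ to 3′ with the 2 matches in capitals, at -104 to -95 and -85 to -76 from the start site, from RefSeq on GRCm38.p6.
Ifit1: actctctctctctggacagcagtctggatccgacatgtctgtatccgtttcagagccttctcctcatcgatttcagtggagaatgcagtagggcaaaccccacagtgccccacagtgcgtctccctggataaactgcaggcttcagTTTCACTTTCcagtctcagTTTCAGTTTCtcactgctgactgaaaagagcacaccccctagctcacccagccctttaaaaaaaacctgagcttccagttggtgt

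Class II presentation, the work of dendritic cells, macrophages and B cells, rose in 6 of 9 genes, with a median of 1.12, and all 9 differences were above 0. Cd74, the invariant chain, read 2875, 1539.6 and 1649.5 at 7 days and 10152, 12330 and 11300 at 28 days. Its mean went from 2021 ± 741 to 11261 ± 1089 (SD, n = 3 each; log2 difference 2.51, SE 0.20, adjusted p = 1.53e-10). H2-Aa, the alpha chain of class II, read 1021, 101 and 262 and then 3658, 4065 and 3695 (log2 difference 3.47, SE 0.40, adjusted p = 1.84e-07), and since the 7-day arrays were spread, the difference was 2.78 without the second and 4.28 without the first of them. H2-Ab1 and H2-Eb1 were at 2.09 (SE 0.41) and 1.45 (SE 0.27), and H2-Ab1 was at 1.43 without the second 7-day array (adjusted p = 0.0106). The summed signal of the 9 genes ran from 4363 to 8846 at 7 days and from 22853 to 24417 at 28 days. H2-DMa was not called by 162346_f_at, at 0.47 (adjusted p = 0.363). Its call by the brightest probe set was lost in 5 of the 6 leave-one-out fits, and the other 5 calls held in all of them.

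Markers of the cells that carry these molecules moved unevenly, and their part in the rises was not tested. Of 20 macrophage markers 3 rose and none fell (median 0.42), and the sum over the list was 22408 to 24669 at 7 days and 29900 to 32719 at 28 days. Lyz2, lysozyme of macrophages and granulocytes, rose from 2659.7, 2346 and 2261 to 5699.5, 5144 and 4813 (log2 difference 1.10, SE 0.20, adjusted p = 0.000148), and the complement genes C1qa and C1qc were not called, at 0.50 and 0.54. Ccr2, a chemokine receptor of monocytes, and Ctss, a lysosomal protease, were the other rises, at 1.09 and 0.65, and without the third 7-day array Lyz2 alone was called. Of 9 lymphocyte markers 2 rose and none fell (median 0.68). Ighm, the heavy chain of IgM, read 1945, 1498 and 1325 and then 4074, 16905 and 9199 (log2 difference 2.43, SE 0.37, adjusted p = 1.83e-05). Jchain, which joins IgM and IgA, read 174, 273 and 178 and then 645, 2023 and 1538 (log2 difference 2.45, SE 0.42, adjusted p = 9.22e-05). In both the second 28-day array was highest and the first lowest. Of the other probe sets of Ighm 93584_at rose (1.96), and 6 were not called, at -0.27 to 1.25. Igkv6-23, a light chain segment, had the same order, at 666, 411 and 423 and then 2023, 16944 and 10607 (log2 difference 3.79, SE 0.60, adjusted p = 3.1e-05), and its difference was 4.69 without the first and 3.17 without the second 28-day array. The segments Igkv15-103 and Igh-VS107 were also among the largest rises, the former from 13.9, 39.6 and 18.6 to 59.1, 874 and 338 (log2 difference 2.51, SE 0.80, adjusted p = 0.0306). The latter rose from 7.20, 25 and 13.1 to 28.2, 1219.6 and 200.1 (log2 difference 2.48, SE 0.78, adjusted p = 0.0294). Both calls were lost in most leave-one-out fits. That of Igkv15-103 was lost without the first or the third 7-day array or the second or the third 28-day array (adjusted p = 0.0856 to 0.198), and that of Igh-VS107 without any array but the first of 28 days (adjusted p = 0.0504 to 0.279). Without that array they were at 3.40 and 3.53, and without the second 28-day array at 1.74 and 1.34. Both were also lost when only the arrays compared were fitted (adjusted p = 0.0572 and 0.117), without the high-albumin arrays (0.124 and 0.081) and with the largest added constant tried (0.0561 and 0.0506). The B cell receptor chain Cd79a was at 0.76 (adjusted p = 0.161) and the T cell marker Thy1 at -0.02 (adjusted p = 0.979).

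Granulocyte and mast cell genes gave 4 falls and no rise among 11 genes, with a median of -0.77. Cma1, a protease of connective tissue mast cells, fell from 3419, 1844 and 2578 to 701, 1134 and 708 (log2 difference -1.58, SE 0.22, adjusted p = 2.86e-06). Mmp9, a gelatinase stored by neutrophils, read 389.9, 2516 and 2436 and then 70.3, 71.6 and 86.5 (log2 difference -3.68, SE 0.50, adjusted p = 2.9e-06), and the difference was -4.54 without the first 7-day array and -2.90 with the largest added constant. S100a8 and S100a9, the main cytosolic proteins of neutrophils, were highest on the third 7-day array, at 239, 1058 and 6316 and 182, 541 and 3754 over the 7-day arrays against 319, 186 and 499 and 104, 18.4 and 261 over the 28-day arrays, and lost their calls without it (-0.66 and -1.47, adjusted p = 0.484 and 0.214). Without the first 7-day array they were at -2.94 and -3.54, and S100a9 was at -3.23 without the third 28-day array. Both calls were also lost without the second 28-day array (-1.51 and -1.96), and that of S100a8 without the second 7-day or the first 28-day array (-1.93 and -1.86). The sum over the list ran from 10262 to 27544 at 7 days and from 5168 to 5962 at 28 days, and the number of falls was 2 without the third 7-day array or the second 28-day array.

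Fat cell genes rose in 4 of 14 cases and fell in none, with a median of 0.78. Scd1, the desaturase of fat synthesis, read 3008, 1507 and 1934 at 7 days and 7404, 11359 and 14990 at 28 days by 94056_at (log2 difference 2.37, SE 0.31, adjusted p = 1.22e-06). It was at 3.14 by 94057_g_at, and was not called by 94058_r_at, at -0.60 (adjusted p = 0.635). Fasn, fatty acid synthase, rose from 1974, 2006 and 2028 to 3519.5, 3937 and 4686 (log2 difference 0.99, SE 0.23, adjusted p = 0.00301). Adig, adipogenin, which is not on the list, rose from 503, 255 and 328 to 2208, 2356 and 2127 (log2 difference 2.57, SE 0.30, adjusted p = 2.31e-07). Adiponectin, Adipoq, read 5040.4, 991 and 1640.4 and then 3992, 5213 and 5779, so that the first 7-day array lay within the 28-day range, and its call was lost in 5 of the 6 leave-one-out fits, all but the one without that array (1.93). Retn, resistin, read 595, 60.3 and 45.4 and then 741, 1098 and 1462, was called at 2.73, and was at 2.18 (adjusted p = 0.0549) without the third 7-day array and 3.69 without the first. The sum over the fat cell list was 17618 to 23668 at 7 days and 32068 to 45055 at 28 days.

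Of 8 Schwann cell genes 2 fell, both of myelin. Pmp22, peripheral myelin protein 22, fell from 18636, 16824 and 16632 to 5945, 7392 and 7048 (log2 difference -1.35, SE 0.14, adjusted p = 4.58e-08). Mbp, myelin basic protein, fell from 7827, 5181 and 6509 to 1787, 1408 and 2694 by 96311_at (log2 difference -1.74, SE 0.26, adjusted p = 9.36e-06). Its probe set 96310_at was not called, at 0.43 (adjusted p = 0.39). Sox10, which defines the lineage, was at -0.12 (adjusted p = 0.821). In the endothelium Cldn5, the tight junction claudin, fell from 6033, 4605 and 5343 to 2312, 2431 and 2152 (log2 difference -1.19, SE 0.15, adjusted p = 7.35e-07), while Eng and Sox18 were not called, at 0.18 and -0.15. The other calls of the 15 endothelial genes, a rise of Flt1 and a fall of Cdh5, were lost without the second 7-day array for Flt1 (0.73 by its brightest probe set and 1.41 by 98453_at), and for Cdh5 without the first or the third array of either age. Without the third 7-day array 2 rises were called. Fibroblast and progenitor genes gave 3 falls and no rise among 9, of which Dlk1 held in every fit. Cd34 and Mfap5 were not called without the first or the third 7-day array or the first 28-day array, and Cd34 also not without the third 28-day array. A second Mfap5 probe set, 99517_at, was at 0.01 (adjusted p = 0.99). Of 12 erythroid genes Ank1, an ankyrin of red cells with a muscle form, was at -0.94 (SE 0.20) and by 100441_s_at, not called, at -0.15. Car2, a carbonic anhydrase, was called at -1.13 but not when the arrays of the series with an albumin signal above 10000, the third 7-day array among them, were left out (-0.72, adjusted p = 0.057). Hba-a1 was at 0.06 (adjusted p = 0.971). The liver list gave 1 fall among 17 genes (5.88%, against 8.07% of all probe sets), and the median of the list was -1.26. The fall was that of Ahsg, fetuin A, at 428, 609 and 11451 and then 114, 35.8 and 100.5. Its call was lost without the third 7-day array (-2.31, adjusted p = 0.32) and without each 28-day array. Its difference without single arrays ran from -2.31 to -4.63, and without the third 7-day array 1 liver gene was called a rise.

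Several of the largest changes are not yet described. Kcne1l, an accessory subunit of potassium channels, read 7938, 8680.4 and 8750.3 at 7 days and 124, 331 and 144 at 28 days (log2 difference -5.30, SE 0.45, adjusted p = 3.62e-10). Agtr2, the fetal receptor of angiotensin II, fell from 1813, 1738 and 1642 to 34.9, 15.3 and 42.7 (log2 difference -4.83, SE 0.42, adjusted p = 5.88e-10). Nrk, a kinase on the X chromosome of mainly embryonic expression, fell from 1183, 835 and 1354 to 10.9, 8.10 and 12 by 93919_at (log2 difference -4.74, SE 0.52, adjusted p = 6.66e-08) and was at -2.67 by 103502_at. Agtr2 and 93919_at were dim at 28 days, and with the largest added constant tried they were at -3.55 and -3.15. Maged2, of the MAGE family, fell from 19290, 19019 and 16293 to 1692, 1559 and 1935 (log2 difference -3.37, SE 0.26, adjusted p = 7.09e-11). Capn6, a calpain without protease activity, was at -3.28 (SE 0.20) and, by 97943_at, -1.85 (SE 0.21). Ddc, the decarboxylase that makes dopamine and serotonin, was at -3.28 (SE 0.26). H1f10, a linker histone, was at -3.47 (SE 0.36), or -2.88 with that constant, and Fgfr4, a fibroblast growth factor receptor of young muscle, at -2.63 (SE 0.36). Krtap8-1, a keratin-associated protein of hair, fell from 1037, 251 and 763 to 35, 74.4 and 46.9 (log2 difference -2.91, SE 0.58, adjusted p = 0.000542; -2.03 with that constant). It was 1 fall among 8 genes of skin and hair tested, none of which rose, and without the second 7-day array 2 falls were called.

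Among the rises, Amy1, the salivary type of amylase, read 125, 22.1 and 181 at 7 days and 2414, 2160.2 and 1628 at 28 days. It had the largest log2 difference of the called probe sets, 4.09 (SE 0.36), which was 3.50 without the second 7-day array and 3.25 with the largest added constant, and its mean went on to 3816 at 56 days. Rhou, a small GTPase, rose from 175, 137 and 79.9 to 1311, 2056 and 1730.1 (log2 difference 3.43, SE 0.43, adjusted p = 6.23e-07; 2.82 with that constant) and was at 1.84 (SE 0.22) by 96747_at. Ces1d, a carboxylesterase of fat and liver, rose from 145, 20.8 and 200 to 1088, 1279 and 1277 (log2 difference 3.26, SE 0.47, adjusted p = 5.8e-06; 2.62 without the second 7-day array and 2.50 with that constant), and 101538_i_at was at 2.65 (SE 0.61). S100a1, a calcium sensor that acts on the release channel of muscle, rose from 2209, 1508 and 2304 to 10849, 9297 and 9111 (log2 difference 2.28, SE 0.18, adjusted p = 1.13e-10), and Inmt, a methyltransferase of indole amines, by 2.84. H2-D4, a class I gene, was at 2.27 (SE 0.55).

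The same ages in mdx diaphragm were used to see which of these changes also occurred, and to the same extent, where dystrophin is lacking; these 6 arrays were not used in the control comparison, although the fit shares its estimate of the spread. In mdx 524 probe sets rose (5.64%) and 342 fell (3.68%) between 7 and 28 days, 9.32% in all, and 188 falls were called without the first mdx array of 28 days. Of the 612 control rises 260 also rose in mdx, which is 42.5% of the control rises and 49.6% of the mdx rises, 1 fell, and 555 had the same sign. Of the 750 control falls 167 also fell in mdx, which is 22.3% of the control falls and 48.8% of the mdx falls, 17 rose, and 606 had the same sign. The control rises had a median log2 difference of 0.84 in control and 0.46 in mdx, and the control falls -0.84 and -0.36. The control calls were chosen by their values in control, which by itself favours smaller values in mdx. Array measures also differed by genotype among the 7-day arrays. The lowest correlation between replicates was 0.884 in mdx, against 0.95 in control. In mdx the Gapdh ratio read 0.830, 0.320 and 0.704, against 0.147, 0.0555 and 0.0357 in control. Albumin reached 35487 on the first of these mdx arrays. Beyond the alternative runs given at the end, the part of these differences in the comparison of genotypes was not tested.

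The direct test of the difference between genotypes called 206 probe sets (2.22%): in 166 (1.79%) the change was higher in mdx and in 40 (0.431%) it was lower. The latter count was 23 without the first mdx array of 28 days and 25 without the first or the third control array of either age. Of the control falls 101 were among those called, and of the control rises 33. Myh3, which fell in control, read 1378, 3082 and 2422 on the mdx arrays of 7 days and 8591, 6372 and 11058 on those of 28 days, so that its change differed by 6.17, SE 0.63, adjusted p = 8.38e-08. Myl4 read 4083, 5687 and 7215 and then 23570, 14856 and 19052 in mdx (difference 5.12, SE 0.36, adjusted p = 6.71e-11). Myh8 fell in both genotypes, in mdx from 8834, 23584 and 23712 to 6612, 5307 and 6954, and by less (4.42, SE 0.42, adjusted p = 6.16e-08). In these 3 genes all 28-day mdx arrays were above all 28-day control arrays, which goes with such large differences and is no further support. The share of all probe sets so placed was not counted. Oxct1 rose in both, in mdx from 4640.2, 5143 and 5033 to 12154, 14743 and 12514, and by less (-0.97, SE 0.17, adjusted p = 0.000913).

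By gene group, the test between genotypes was called upward for 6 of the 11 developmental contractile genes and 6 of the 19 tubulins and thymosins, for 10 of the 20 macrophage markers, of which 14 in all rose in mdx, and for 3 of the 21 imprinted genes. limma called it for none of the 43 genes of the cell cycle. Of these 11 had an unadjusted p under 0.05, against 1430 of all 9291 probe sets. In the cell cycle 4 of 43 genes fell in mdx, with a median of -0.52 against -0.92 in control, and a test that calls nothing does not show that the genotypes changed alike. Dlk1 fell in mdx from a mean of 31672 to 2884 (-3.43 on the log2 scale).

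**Figure D5:**
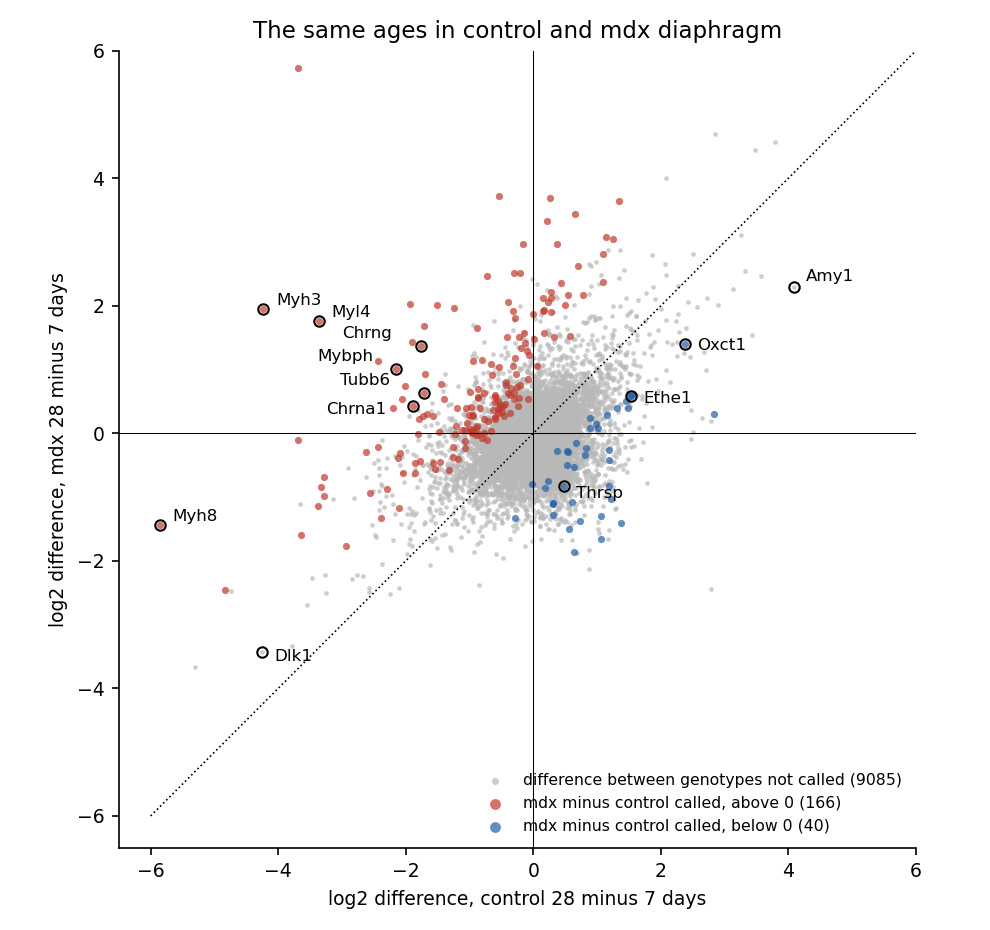
Each point is a tested probe set, with the log2 difference of 28 minus 7 days in control on the horizontal axis and the same in mdx on the vertical axis; the dotted line marks equal change, red the 166 probe sets whose change was called higher in mdx, blue the 40 called lower and grey the other 9085. Myh3, Myl4, Mybph, Chrng, Tubb6 and Chrna1 lie left of 0 and above it. Dlk1 lies below 0 on both axes and above the dotted line, and Oxct1 and Ethe1 lie below that line.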

How the data were processed

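The deposited table gives 1 intensity per probe set and array on a linear scale, and per the labels the arrays were handled by the maker's standard protocol; the software and scaling used by the authors are not given in the sources used here. From the values, the mean between percentiles 2 and 98 lies between 1499.2 and 1499.7 on all 36 arrays. Probe sets above percentile 40 (374.5) on at least 3 arrays were tested, 9291 of 12488, after leaving out 66 controls of the maker; 10833 have 1 gene symbol in the platform annotation, 396 several and 1193 none, and 10817 matched a RefSeq gene. limma 3.58.1 in R 4.3.3 fitted log2(intensity + 32) with 12 group means over all 36 arrays, so that the spread is shared between groups (24 residual degrees of freedom), with eBayes (trend) and Benjamini-Hochberg adjustment; code was tested on simulated data. The number of arrays limits the precision (median SE 0.26).

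The comparison and the 42 gene lists (880 genes) were chosen with earlier results of these data known. A list reads each gene by its brightest probe set. Genes could be named as one of the 20 largest rises or falls that do not overlap, as up to 6 called members a list and direction by lowest p, as its 2 brightest uncalled ones, or as fixed genes such as the myosins; the first are all named, and some list members are left to the counts. The other probe sets of these genes, members whose calls were lost, Top2a and Ifit3 were added after their values were seen. Of the fixed genes H19 and Hbb-b1 are read only by probe sets that name several genes and are not reported. Promoters are the 250 bases before the RefSeq start.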

Additional observations from a re-analysis of the deposited data

Results flagged for a closer look

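The change from 7 to 28 days differed between control and mdx by the test of the difference itself for 166 probe sets whose change was higher in mdx and 40 whose change was lower. The genes below are those of lowest p in each direction and those given for every comparison. In the test of the difference (limma, adjusted over all probe sets) Myh3 differed by 6.17, SE 0.63, adjusted p = 8.38e-08, Myl4 by 5.12, SE 0.36, adjusted p = 6.71e-11 and Myh8 by 4.42, SE 0.42, adjusted p = 6.16e-08. The fetal receptor subunit Chrng read 763, 1415 and 1606 on the mdx arrays of 7 days and 2023, 2913 and 5284 on those of 28 days, against a fall in control (3.13, SE 0.59, adjusted p = 0.00204). Chrna1 read 2346, 3112 and 2964 and then 2766, 3939.9 and 4887 in mdx and was not called there (2.31, SE 0.23, adjusted p = 7.04e-08). Tubb6 read 9044, 6925 and 9040.1 and then 11421, 12556 and 14707 in mdx (2.35, SE 0.23, adjusted p = 6.16e-08), and Mybph 2039, 1666 and 2122 and then 3036, 3554 and 5601 (3.16, SE 0.32, adjusted p = 8.38e-08).

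In the other direction, Oxct1 differed by -0.97, SE 0.17, adjusted p = 0.000913. Ethe1, a sulfur dioxygenase of mitochondria, read 2115, 1642 and 2336 and then 5409, 6196 and 6043 in control and 3387, 2693 and 2786 and then 4285, 4487 and 4473 in mdx, a rise in both (-0.95, SE 0.19, adjusted p = 0.00347). Myh14, a nonmuscle myosin, rose in control from 2563, 2317 and 2383 to 4210.4, 3976 and 3508 and was not called in mdx, at -0.15 (-0.83, SE 0.15, adjusted p = 0.00204). Chad rose in control and was not called in mdx, at -0.26 (-1.45, SE 0.29, adjusted p = 0.00347). Thrsp, a regulator of fat synthesis, was not called in control, at 0.48, and fell in mdx, at -0.82 (-1.30, SE 0.26, adjusted p = 0.00347). The calls of Thrsp and Chad were lost without the arrays of high albumin signal (adjusted p = 0.0519 for Thrsp, and -1.04 with adjusted p = 0.0786 for Chad), and that of Chad also when only the 12 arrays compared were fitted (-1.45, adjusted p = 0.0591); the other 10 genes kept their call under each alternative run.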

How the results depend on the processing

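Under every alternative run, 68.7% to 99.9% of the 1362 control calls were shared, all in the same direction. No probe set named by rule for the control comparison changed sign where it was called in that run or in the fit reported above. Sign changes of values called in neither were not counted. With array weights 1216 rises and 1342 falls were called in control, and 274 and 127 for the difference between genotypes. Leaving out 1 control array gave 455 to 510 rises and 494 to 687 falls. For mdx, leaving out 1 array gave 364 to 546 rises and 188 to 351 falls, fitting only the arrays compared gave 192 rises and 88 falls, and leaving out the 9 arrays with an albumin signal above 10000 gave 224 falls. The difference between genotypes gave 111 to 179 rises and 23 to 56 falls without 1 array, 87 and 13 without the high-albumin arrays, and 15 falls with only the arrays compared. With the replicate number as a block, 597 rises and 730 falls were called in control, but equal numbers did not deviate together (correlations -0.07, -0.20 and -0.01), so they were not taken as pairs. Counting all probe sets of each gene gave 3 rises for myogenic regulators, 17 falls for imprinted genes, 2 rises for fetal and for endothelial genes and 1 rise for fibroblast genes. Calls of dim genes depend on the added constant. The labels give neither animals nor batches, so age cannot be told apart from what the arrays of an age share.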
